A study of Mus musculus with 18 samples.

Results

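Repair junctions of RAG-cut coding ends were compared between G1-arrested B cells with and without DNA-PKcs. Of the 12 coding-join libraries analysed, the 4 from G1 cells were chosen by their labelled phase, and they hold 15937 of 30937 junctions. DNA-PKcs is present in the wild-type and the CtIP A/A library and absent from the DNA-PKcs-/- library and from CtIP A/A DNA-PKcs-/-, the double mutant, with 1 library each. The effect of DNA-PKcs loss is the difference between libraries without and with the protein, taken within each CtIP genotype and then averaged. All lines were v-abl transformed, that is, early B-lineage cells kept growing by a viral oncogenic Abl kinase, of mouse strain 129, with a stably integrated pMX-INV substrate. Every G1 culture received the Abl kinase inhibitor STI571 at 3 µM for 48 or 72 h, and the labels do not say which duration each library had. The 8 G2 libraries, 2 per genotype, received STI571 for 24 h and then the CDK1 inhibitor RO3306 at 10 µM for 48 h. The labels name no clone, so the line and the genotype cannot be told apart.

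DNA-PKcs is a large kinase that binds Ku at broken ends and acts in classical non-homologous end joining. The RAG nuclease cuts between a coding segment and its recombination signal and leaves the coding end sealed as a hairpin, which DNA-PKcs and Artemis open. An off-centre nick leaves palindromic P nucleotides at the end, and terminal transferase can add N nucleotides before ligation. CtIP promotes resection of broken ends, and the A/A allele has alanine at a conserved phosphorylation site. STI571 arrests v-abl lines in G1 and induces RAG, so the cells also cut their own immunoglobulin light-chain loci. HTGTS (high-throughput genome-wide translocation sequencing) reads from a bait primer beside 1 coding end, the bait end, into whatever that end was joined to, the prey. On pMX-INV the bait end is normally joined to the other coding end, called the partner end.

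The substrate heptamer CACTGTG lies at positions 1936 to 1942 beside the bait coding end and at 2806 to 2812 beside the partner coding end. The endogenous Jκ segments carry the same type of signal, and the 5 borders are printed because junctions in the κ light-chain locus were measured at them. Each sequence is the + strand of GRCm38.p6 (the assembly behind mm10) from RefSeq, with the heptamer in capitals, the spacer and nonamer side before it and the first coding bases after it.
Igkj1, chr6:70722523-70722581: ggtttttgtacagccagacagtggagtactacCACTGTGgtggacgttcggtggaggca
Igkj2, chr6:70722877-70722935: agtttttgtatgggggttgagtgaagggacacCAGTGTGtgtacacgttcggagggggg
Igkj3, chr6:70723184-70723242: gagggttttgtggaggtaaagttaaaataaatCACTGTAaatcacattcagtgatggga
Igkj4, chr6:70723509-70723567: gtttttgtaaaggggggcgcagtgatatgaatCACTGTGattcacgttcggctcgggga
Igkj5, chr6:70723847-70723905: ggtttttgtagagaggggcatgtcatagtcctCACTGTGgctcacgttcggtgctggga
The heptamers of Igkj1, Igkj4 and Igkj5 equal that of the substrate over 7 of 7 bases. Those of Igkj2 and Igkj3 match it over 6 of 7, and in Igkj3 the differing base is the last, which adjoins the coding segment.

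The wild-type library held 2993 junctions, the CtIP A/A library 834, the DNA-PKcs-/- library 5042 and the double-mutant library 7068. Lines repeating the prey position, strand and bait end of an earlier line made up 12.5%, 15.1%, 5.55% and 6.41% of these libraries, in that order. Among coding joins alone they made up 33.6%, 28.7%, 9.77% and 11.4%. All intervals below are 95% Wilson intervals for shares or Newcombe-type intervals for differences. They cover counting error only, not the spread between libraries of a genotype. They also take each line as a separate join, although reads carry no molecular identifiers and lines can be copies. With 1 library per genotype, exchanging labels within CtIP genotypes gives 4 arrangements and no two-sided p below 0.5, so no test was made within G1. The wild-type G1 library stood apart from the 2 wild-type G2 libraries, with a substrate share of 39.3% against 69.2% and 64.0%. Differences are therefore given for each CtIP genotype as well as averaged, and the difference within CtIP A/A does not use the wild-type library. Junctions shared between libraries had the same position, strand, bait end and insertion or homology length. They were few in the genome with prey of 2 or more telomere units left out. Each pair of G1 libraries shared between 4 and 21 there, of 296 to 1881 distinct ones per library. On the substrate each pair shared between 87 and 366, of 522 to 1829 distinct ones. The 366 were shared by the 2 libraries without DNA-PKcs, which also had the most distinct ones, 1367 and 1829. The 2 libraries with the protein shared 136, of 1146 and 522 distinct ones. Shared numbers thus also depend on depth.

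Without DNA-PKcs, a smaller share of all junctions lay on the substrate and a much larger share in telomere repeat. The substrate held 39.3% of junctions in the wild-type library and 63.7% in the CtIP A/A library, and 27.4% and 26.2% in the DNA-PKcs-/- and double-mutant libraries. Both libraries without the protein lay below the libraries with it. The averaged difference was -24.6 points (95% interval -26.6 to -22.6), made of -11.8 points with wild-type CtIP and -37.4 points with CtIP A/A. Telomere-repeat prey, with 3 or more exact units of 6 bases, made up 1.6% and 0.600% of junctions with DNA-PKcs, and 43.6% and 40.1% without it. The averaged telomere difference was 40.7 points (39.7 to 41.7, over lines that share events, as described next), and it was 42 points with wild-type CtIP and 39.5 points with CtIP A/A.

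**Figure D1:**
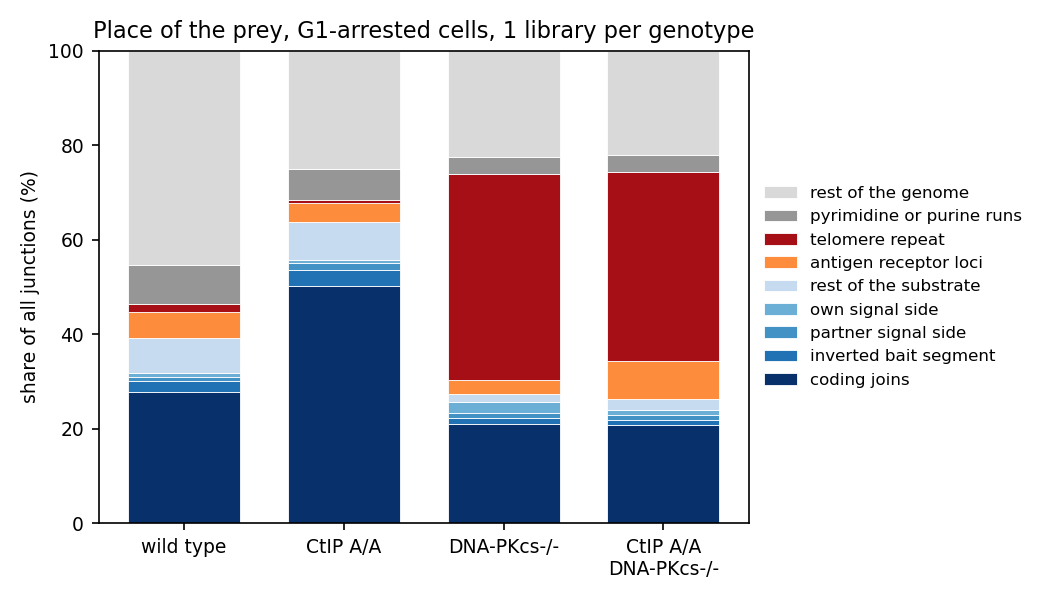
Share of all junctions (%, vertical axis) by place of the prey in the 4 G1 libraries, 1 bar per library. Telomere repeat fills 43.6% and 40.1% of the bars without DNA-PKcs, against 1.6% and 0.600% of the bars with it, and coding joins fill 20.9% and 20.8% against 27.7% and 50.1%.

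The size of the substrate difference, and with wild-type CtIP also its sign, depended on the telomere lines in its total. With telomere-repeat junctions left out it was -5.77 points (-7.94 to -3.54), made of 8.70 points (6.14 to 11.2) with wild-type CtIP and -20.2 points (-23.8 to -16.6) with CtIP A/A. In an alternative chosen after seeing the data, all prey with 2 or more telomere units was left out. The substrate share was 40.3% in the wild-type library and 64.2% in the CtIP A/A library, and 58.6% and 49.5% without DNA-PKcs. The averaged difference was then 1.84 points (-0.392 to 4.11). The CtIP genotypes again differed in sign, with 18.4 points for wild-type CtIP and -14.7 points for CtIP A/A. Within the substrate, joins between the coding ends made up 70.6%, 78.7%, 76.2% and 79.3% of junctions, in the order wild type, CtIP A/A, DNA-PKcs-/-, double mutant (the usual order below). The averaged difference of that share was 3.08 points (0.525 to 5.75).

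Telomere-repeat lines fell into fewer groups, here called events, in each library. The 2196 lines of the DNA-PKcs-/- library fell into 148 events, and the 2835 lines of the double-mutant library into 204, an event being 1 bait end followed by the same 12 read bases with up to 2 differences. The wild-type library had 48 lines in 32 events and the CtIP A/A library 5 lines in 4 events. In a 6-base repeat, separate joins of 1 bait end can share these 12 bases and are then merged into 1 event. The telomere lines used 66 different bait ends in the DNA-PKcs-/- library and 67 in the double mutant. In the DNA-PKcs-/- library 10 events held 75.3% of the telomere lines, and in the double mutant 72.9%. The most frequent event of the DNA-PKcs-/- library had 341 lines, left the bait with 51 bp deleted and ran into taaccctaaccctaaccc. That of the double-mutant library had 423 lines, left the bait with 56 bp deleted and ran into ccctaaccctaaccctaa. Lines of each of these 2 events were placed on 21 chromosomes, so the mapped chromosome of such prey carries no information. With each event counted once, telomere repeat made up 1.07% and 0.480% of junctions with DNA-PKcs, and 4.94% and 4.60% without it. The averaged difference was 3.99 points (3.36 to 4.57), in place of 40.7 points over lines. An event had 1.5 and 1.25 lines on average with DNA-PKcs and 14.8 and 13.9 without it. Whether lines of an event are separate cells, copies made in amplification or a product of junction calling in repeats cannot be told from the deposited tables. The shares over lines can therefore count 1 repair event many times, and the shares over events can count several as 1. Neither is a share of separate repair events.

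Telomere repeat was read in 1 orientation in nearly all lines, counted over lines that share events. The unit CCCTAA read outwards from the bait in 45 of 48 lines of the wild-type library, 5 of 5 of the CtIP A/A library, 2189 of 2196 of the DNA-PKcs-/- library and 2826 of 2835 of the double mutant. At a chromosome end, repeat read this way runs from the end inwards. Whether the repeat lay at a chromosome end was not tested. Bait deletions at telomere events were long in the DNA-PKcs-/- library: 83.8% of events had lost over 20 bp, with a median of 53.0 bp. In the double mutant 51.5% had, with a median of 24.0 bp. The wild-type library had 22 of 32 events above 20 bp, so long bait loss at telomere joins was also present with DNA-PKcs.

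Coding joins, that is, bait end joined to partner end, were shortened at both ends in the absence of DNA-PKcs. Of these joins the wild-type library had 830, the CtIP A/A library 418, the DNA-PKcs-/- library 1054 and the double mutant 1471. The median loss at the partner end was 7 bp and 6 bp with DNA-PKcs and 20 bp and 23 bp without it, an averaged difference of 15 bp. More than 20 bp was lost at the partner end in 17.2% and 16.5% of joins with the protein and in 49.8% and 53.6% without it, a difference of 34.9 points (31.8 to 37.7). At the bait end the median loss was 7 bp and 4 bp with DNA-PKcs and 33 bp and 29 bp without it. More than 20 bp was lost there in 18.4% and 17.9% of joins against 64.5% and 60.4%, a difference of 44.3 points (41.2 to 47.1). No library without the protein overlapped a library with it in any of these values.

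**Figure D2:**
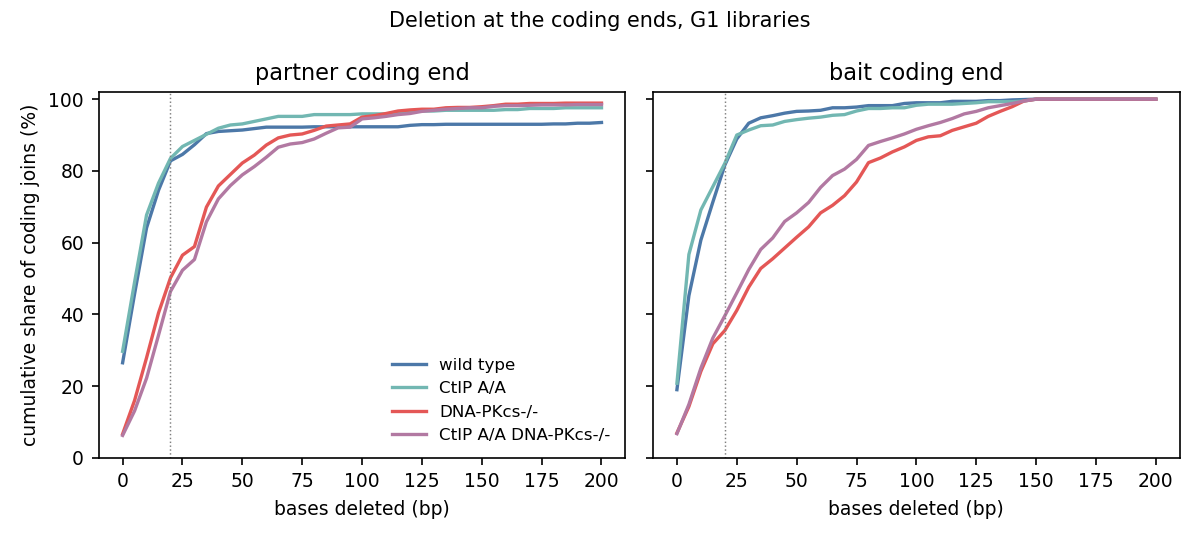
Cumulative share of coding joins (%, vertical axis) with up to the given number of bases deleted (bp, horizontal axis) at the partner end (left) and the bait end (right), 1 line per G1 library, with a dotted line at 20 bp. The curves without DNA-PKcs start at 6.64% and 6.25% at the partner end, against 26.5% and 29.7% with it, and run below the other curves up to 50 bp.

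The loss was of moderate size at the partner end. Deletions of 21 to 50 bp made up 8.67% and 9.57% of joins with DNA-PKcs and 32% and 32.6% without it. Those of 51 to 100 bp made up 0.843% and 2.87% with the protein and 12.8% and 15.6% without it, differences of 12 points (9.88 to 14.2) and 12.7 points (9.97 to 15). Deletions over 200 bp went the other way. They made up 6.51% of joins in the wild-type library, 2.39% in the CtIP A/A library, 1.14% in the DNA-PKcs-/- library and 1.5% in the double mutant. The difference was -5.37 points (-7.32 to -3.66) with wild-type CtIP and -0.897 points (-2.92 to 0.429) with CtIP A/A, so it rests on the wild-type library. The 54 long joins of that library were 52 distinct junctions, and their bait ends had lost a median of 1 bp. The 12 and 22 long joins of the libraries without DNA-PKcs had lost a median of 72.5 bp and 33.0 bp at the bait. Loss at the bait end cannot be followed as far, because the nested primer ends at position 2121, and the longest bait deletion in any coding join was 149 bp.

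The ends were trimmed together. Both ends had lost over 20 bp in 3.61% and 7.89% of joins with DNA-PKcs and in 41.9% and 40.8% without it, a difference of 35.6 points (33.1 to 37.9). Neither end had in 68.0% and 73.4% of joins with the protein and in 27.6% and 26.8% without it. Loss at the partner end alone went opposite ways in the CtIP genotypes, at 13.6%, 8.61%, 7.87% and 12.8% in the usual order. The difference was -5.74 points (-8.64 to -2.93) with wild-type CtIP and 4.24 points (0.758 to 7.18) with CtIP A/A. In the DNA-PKcs-/- library the bait had lost over 20 bp in 84.2% of joins whose partner end had and in 45.0% of joins whose partner end had not. In the double mutant these shares were 76.0% and 42.2%. In the wild-type library they were 21% and 17.9%, and in the CtIP A/A library 47.8% (33 joins) and 12%.

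Full-length ends were fewer without DNA-PKcs, but those that remained at the partner end carried heptamer-side bases about as often. No coding base was lost at the partner end in 26.5% and 29.7% of joins with DNA-PKcs and in 6.64% and 6.25% without it. At the bait end these shares were 19% and 20.8% against 6.93% and 6.73%. The single most used prey position, 2811, lies 2 bases inside the heptamer and took 12.2% and 11.7% of joins with DNA-PKcs and 3.42% and 3.20% without it. Position 2812, 1 base inside, took 7.47% and 10.0% against 1.42% and 0.816%. P nucleotides that happen to equal the heptamer bases align to the heptamer, so these starts were not told apart from retained signal bases. Of the partner ends with no coding loss, 74.1%, 73.4%, 72.9% and 64.1% extended 1 or 2 bases into the heptamer. The averaged difference was -5.25 points (-14.1 to 3.00). At intact bait ends the share was higher without the protein, 67.1% and 65.7% against 41.8% and 48.3%, a difference of 21.4 points (11.4 to 30.4).

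Use of the most frequent deeper positions differed in size. Prey position 2829, 16 bp into the partner coding segment, took 4.10% and 2.63% of joins with DNA-PKcs and 3.89% and 4.69% without it. Positions 2815 and 2821, at 2 and 8 bp, took 6.51% and 5.50%, and 4.58% and 5.26%, with DNA-PKcs. Without it they took 2.18% and 1.09%, and 2.66% and 1.56%. Among bait ends the most used was 1947, with 4 bp lost, at 6.02% and 9.33% with the protein and 1.52% and 1.70% without. Bait end 1944, with 1 bp lost, took 5.90% and 8.13% against 1.80% and 2.11%.

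Inserted bases, which include N nucleotides, were rarer and shorter without DNA-PKcs. An insertion was present in 68.2% of coding joins of the wild-type library and 70.6% of the CtIP A/A library, and in 24.3% and 20.5% without the protein. The difference was -47.0 points (-50 to -43.7). The difference lay mostly in the longer insertions. Those of 4 bp or more made up 36.6% and 34.2% of coding joins with DNA-PKcs and 4.17% and 3.94% without it, a difference of -31.4 points (-34.3 to -28.5). Single-base insertions made up 11.9% and 12.4% against 9.96% and 8.91%, a difference of -2.75 points (-5.13 to -0.606). The median insertion was 4 bp and 3 bp with the protein and 2 bp in both libraries without it. Inserted bases per coding join numbered 3.32 and 3.01 against 0.617 and 0.514.

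The joint share of G and C among inserted bases was similar in all 4 libraries, while their balance differed mainly between the CtIP A/A libraries. Together G and C made up 65.1% (63.3 to 66.9) of inserted bases in the wild-type library, 66.7% in the CtIP A/A library, 68.3% (64.6 to 71.8) in the DNA-PKcs-/- library and 66.7% in the double mutant. C alone made up 36.8%, 41.5%, 37.5% and 32.7% in the usual order, and G alone 28.4%, 25.2%, 30.8% and 34%. Single bases carry no interval here, and the intervals above take each base as separate although bases share insertions. Terminal transferase is known to favour G and C. The most frequent insertion was a single G in both groups, at 4.46% and 5.74% of coding joins with DNA-PKcs and 3.98% and 3.47% without it. The next with DNA-PKcs were T, A, CC and GG, and without it C, A, T and CC. Palindromic insertions, which repeat 3 or more adjoining bases as reverse complement, were 3, 5, 3 and 3 joins in the usual order. That is 0.361%, 1.20%, 0.285% and 0.204%, an averaged difference of -0.535 points (-1.40 to -0.0392). It was -0.0768 points (-0.798 to 0.522) with wild-type CtIP and -0.992 points (-2.57 to -0.203) with CtIP A/A. Only insertions of 3 bp or more can be counted here, and insertions of that length were rarer without DNA-PKcs. Whether the palindromic share of such insertions differed was not tested. With alignments trimmed at the heptamer borders, so that bases past the coding end count as inserted, the averaged difference was -3.63 points (-5.57 to -1.98).

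**Figure D3:**
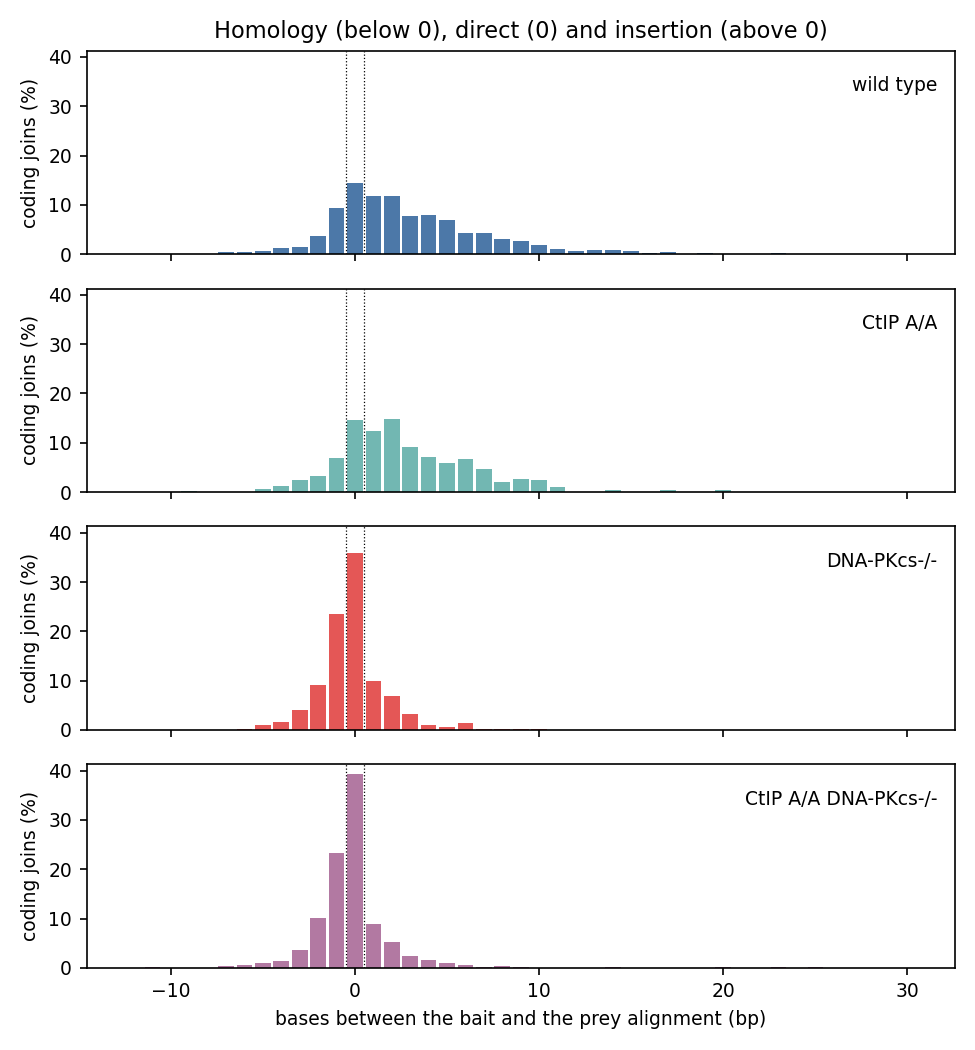
Share of coding joins (%, vertical axis) by the number of bases between bait and prey alignment (bp, horizontal axis), 1 panel per G1 library: negative values are shared bases (homology), 0 is a direct join and positive values are inserted bases. The bar at 0 reaches 35.8% and 39.3% without DNA-PKcs against 14.5% and 14.6% with it, and the bars from 4 bp upwards sum to 4.17% and 3.94% against 36.6% and 34.2%.

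Direct joins and joins with homology were both more frequent without DNA-PKcs. Direct joins, with no inserted and no shared base, made up 14.5% and 14.6% of coding joins with DNA-PKcs and 35.8% and 39.3% without it, a difference of 23.0 points (20.1 to 25.7). Joins with 1 or more shared bases made up 17.3% and 14.8% against 39.9% and 40.2%, a difference of 24.0 points (21 to 26.8). Among joins without insertion the split did not move with DNA-PKcs by more than counting error. Direct joins were 45.5% and 49.6% of these with the protein and 47.2% and 49.4% without it, a difference of 0.798 points (-4.95 to 6.51).

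Most of the added homology was 1 or 2 bases long. A single shared base was found in 9.28% and 6.94% of coding joins with DNA-PKcs and in 23.5% and 23.2% without it. For 2 shared bases the shares were 3.73% and 3.35% against 9.20% and 10.1%. Homology of 4 bp or more was found in 2.77% and 2.15% against 3.23% and 3.33%, a difference of 0.816 points (-0.493 to 1.88). That difference depended on the setting: it was 2.33 points (1.33 to 3.18) with alignments trimmed at the heptamer borders and -0.847 points (-2.73 to 0.805) with a window on both sides of the prey peak. As a share of homology joins, 4 bp or more made up 16.0% and 14.5% with DNA-PKcs and 8.08% and 8.28% without it. The most frequent shared base was C in both groups, at 4.70% and 2.63% of coding joins with DNA-PKcs and 9.58% and 10.1% without it. The dinucleotide CC was among the 5 most frequent homologies without the protein, at 2.66% and 2.65%, and TG was among those with it, at 0.723% and 0.718%.

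Insertion was also compared within classes of end loss, which are wide, so that ends within a class still differed in length. Among joins with no more than 20 bp lost at either end, 69.7% and 71.0% had an insertion with DNA-PKcs and 43.6% and 40.1% without it, a difference of -28.5 points (-33.2 to -23.5). Among joins with over 20 bp lost at both ends insertions were found in 15 of 30 and 19 of 33 with DNA-PKcs and in 15.4% and 8.33% without it. That difference was -41.9 points (-53.4 to -29.8). Joins with homology made up 15.2% and 14.3% against 24.1% and 22.1% where neither end had lost over 20 bp. Where no base was lost at either end, the joins were few and the CtIP genotypes went opposite ways. An insertion was present in 29 of 46 and 21 of 26 of these with DNA-PKcs and in 9 of 12 and 6 of 15 without it, differences of 12 points (-18.9 to 33.6) with wild-type CtIP and -40.8 points (-63.6 to -10.2) with CtIP A/A, averaging -14.4 (-33.6 to 4.33). Homology was present in 13 of 46, 5 of 26, 2 of 12 and 8 of 15, with an averaged difference of 11.3 points (-6.31 to 30.6). Within the libraries without the protein, homology joins had lost more than inserted joins: medians of 29.0 and 33.0 bp against 12 and 12 bp at the partner end, and of 47.0 and 42 bp against 14.5 and 10.0 bp at the bait end.

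Joins of the bait coding end to the partner signal end, called hybrid joins, showed the same pattern at the bait. There were 24 and 13 of them with DNA-PKcs and 50 and 74 without it. An insertion was present in 79.2% and 69.2% against 22.0% and 18.9%, a difference of -53.7 points (-66.0 to -35.1). The bait had lost over 20 bp in 1 of 24 and 1 of 13 hybrid joins with the protein, and in 38.0% and 33.8% without it. Joins of the bait back to its own signal side made up 2.13% and 0.753% of substrate junctions with DNA-PKcs and 8.53% and 3.72% without it. Their difference was 6.4 points (4.72 to 8.13) with wild-type CtIP and 2.97 points (1.57 to 4.03) with CtIP A/A. In contrast to the hybrid joins, these had long bait loss in all libraries: over 20 bp in 76.0%, 100% (4 of 4), 72.9% and 52.2%. Joins to the bait segment itself in inverted orientation had long bait loss and few insertions in all 4 libraries: the bait had lost over 20 bp in 94.5%, 89.7%, 94.4% and 85.5%, and an insertion was present in 15.1%, 10.3%, 18.3% and 15.8%. The averaged insertion difference there was 4.34 points (-6.28 to 12.9). Junctions elsewhere on the substrate made up 19% and 12.6% of substrate junctions with DNA-PKcs and 6.58% and 8.89% without it.

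**Figure D4:**
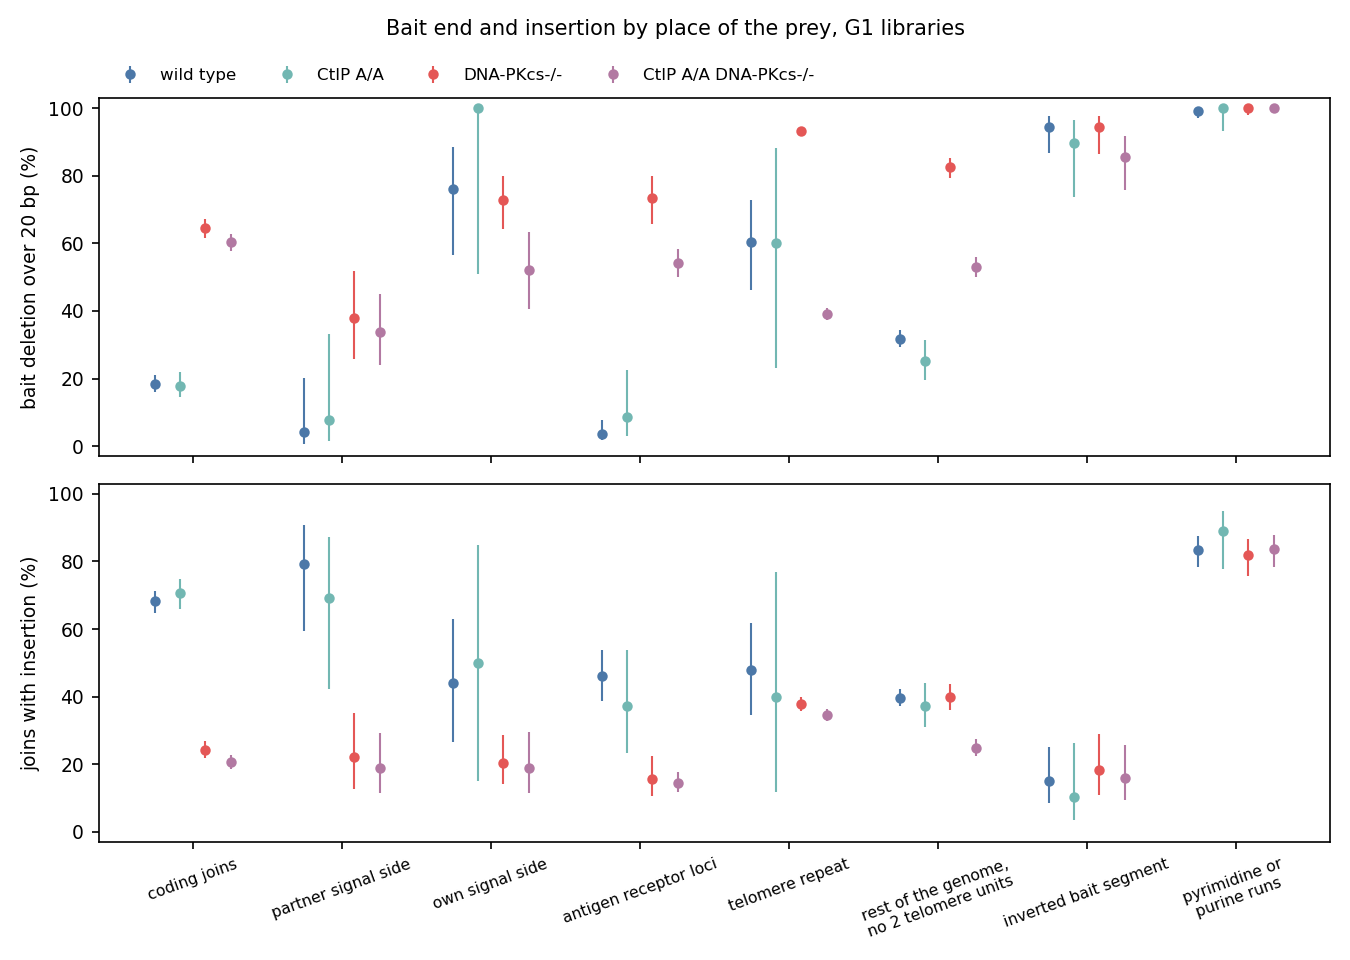
Share of joins with over 20 bp lost at the bait (%, top) and share with an insertion (%, bottom) by place of the prey, with 1 point per G1 library and 95% Wilson intervals as bars. Bait loss at antigen receptor joins was 3.64% and 8.57% with DNA-PKcs against 73.5% and 54.3% without it, while at pyrimidine or purine runs every library lay at 99.2% or above.

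Antigen receptor loci were joined to the bait end in all 4 libraries. Junctions anywhere within a locus were counted, and RAG breaks there were not measured. Of genome junctions without telomere repeat these loci held 9.33% and 11.7% with DNA-PKcs and 10.1% and 23.8% without it. The difference was 0.727 points (-1.31 to 2.81) with wild-type CtIP and 12.1 points (7.62 to 15.7) with CtIP A/A. These values depended on the total. Over all genome junctions the averaged difference was -2.78 points (-5 to -1). With prey of 2 telomere units and the pyrimidine or purine runs also left out, an alternative chosen after seeing the data, the differences were 7.46 points (4.41 to 10.7) and 19.7 points (14.3 to 24.3). The κ light-chain locus Igk (chromosome 6, 67555497 to 70726966) held 95, 24, 135 and 514 junctions in the usual order. As shares of genome junctions without telomere repeat these were 5.37% and 8.05% against 8.96% and 21.4%, with differences of 3.59 points (1.81 to 5.43) and 13.4 points (9.41 to 16.5). The heavy-chain locus Igh (chromosome 12) held 55, 5, 5 and 26, and its share was 3.11% in the wild-type library against 0.342% in the DNA-PKcs-/- library. That difference was -2.77 points (-3.70 to -1.92), while with CtIP A/A it was -0.584 points (-2.80 to 0.499), within counting error. The λ light-chain locus Igl had 9, 3, 6 and 22. The 3 T cell receptor loci had between 0 and 6 junctions each per library.

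Bait ends joined to antigen receptor loci were nearly intact with DNA-PKcs and strongly trimmed without it. Over 20 bp was lost in 6 of 165 and 3 of 35 such joins with the protein and in 108 of 147 and 308 of 567 without it. The shares were 3.64% and 8.57% against 73.5% and 54.3%, a difference of 57.8 points (49.4 to 62.6). The bait was at full length in 35.8% and 45.7% of these joins against 4.08% and 6.88%. An insertion was present in 46.1% and 37.1% against 15.6% and 14.5%.

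Within Igk the side of the Vκ segment border that was joined differed, among junctions within 50 bp of a border. Signal sides of Vκ segments took 37 of 95 Igk junctions in the wild-type library and 12 of 24 in the CtIP A/A library, but 19 of 135 and 62 of 514 without DNA-PKcs. As shares of Igk junctions these differed by -31.4 points (-42.3 to -20.4), averaged over the CtIP genotypes. Coding sides of Vκ segments took 9.47% and 4.17% against 25.2% and 23.5%, a difference of 17.5 points (7.92 to 22.8). Jκ coding sides took 26 of 95 and 3 of 24 against 24 of 135 and 144 of 514, so the CtIP genotypes went opposite ways. Jκ signal sides took 14, 3, 7 and 40 in the usual order. The remaining Igk junctions fell in none of these classes and were a larger part of Igk junctions without DNA-PKcs. Whether a wider window would change these shares was not tested. The 9 and 1 coding-side Vκ junctions with the protein fell on 7 and 1 of 160 annotated Vκ genes, and the 34 and 121 without it fell on 24 and 53, so the number of genes rises with the number of junctions. Joins to Vκ signal sides were trimmed too. The bait had lost over 20 bp in 1 of 37 and 1 of 12 of them with DNA-PKcs and in 17 of 19 and 35 of 62 without it, and the Vκ side had lost over 10 bp in 1 of 37 and 2 of 12 against 9 of 19 and 28 of 62. The most used Vκ genes on the coding side were Igkv1-135, with 1, 0, 3 and 10, and Igkv19-93, with 0, 0, 5 and 9.

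At the Jκ segments printed above, coding-side joins numbered 26, 3, 24 and 144. Igkj1 had 9, 2, 12 and 87 of them, and Igkj2 had 8, 0, 4 and 34. Igkj4 had 6, 1, 5 and 14, and Igkj5 had 3, 0, 3 and 9. Igkj3, whose heptamer reads CACTGTA, had 0 junctions at either side of its border in every library. The Jκ coding ends had lost a median of 1 bp in both libraries with DNA-PKcs (26 and 3 joins), and of 11.5 bp and 14 bp without it. Loss of over 10 bp occurred in 3 of 26 and 0 of 3 against 13 of 24 and 88 of 144. Shortening was thus present at an endogenous coding end as well as at the substrate's. The bait ends in these joins had lost a median of 2 bp in the wild-type library and of 43.0 bp and 15 bp in the libraries without the protein.

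Other prey in the genome was mixed. The rest of the genome, outside telomere repeat, antigen receptor loci and runs of 90% or more C and T or A and G, held 45.3%, 25.1%, 22.5% and 22.1% of all junctions. Prey with exactly 2 telomere units made up 1.77% and 0.957% of it with DNA-PKcs and 42.8% and 30.9% without it. With these set aside, the bait had lost over 20 bp in 31.7% and 25.1% of joins with the protein and in 82.6% and 53.1% without it, a difference of 39.4 points (35.4 to 43.0). Part of this set shared its bait ends with the most frequent telomere events of its library, up to 10 of them. This part was 15.8%, 0.483% (1 join), 41.7% (270 of 648 joins) and 30.6% of the set in the usual order. Over 20 bp was lost at these bait ends in 7.62% of joins in the wild-type library, 95.9% in the DNA-PKcs-/- library and 36.7% in the double mutant. At the other bait ends the shares were 36.2%, 24.8%, 73.0% and 60.3%. Insertion in the set was 39.7% and 37.2% with DNA-PKcs and 39.8% and 24.8% without it, with a difference of 0.0703 points (-4.48 to 4.69) for wild-type CtIP and -12.4 points (-19.6 to -5.52) for CtIP A/A. Whether the 2 CtIP genotypes differ was not tested. Pyrimidine or purine runs made up 8.32% and 6.47% of all junctions with the protein and 3.61% and 3.54% without it, and their median bait loss was 121 bp in every library.

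Among the 10 bins of 1000000 bp that took most genome junctions on average, telomere repeat left out, 4 lay in Igk and 1 each in Igl and Igh. The bins that start at chromosome 16, 98000001, chromosome 6, 53000001, and chromosome Y, 90000001, were seen mainly without DNA-PKcs, with 40 and 52, 45 and 39, and 44 and 27 junctions against 7 or fewer. Of their lines, 64 of 95, 25 of 92 and 53 of 75 held 2 telomere units in all 4 libraries together. The bin that starts at chromosome 3, 88000001, had 40 junctions in the wild-type library and 1, 0 and 2 in the others. Its most used position lies in the gene Mef2d. A cluster on chromosome 2 between 167000001 and 168000000 was chosen after its values were seen. It held 72 junctions in the wild-type library, 95 in the DNA-PKcs-/- library and 0 in both CtIP A/A libraries. The bait had lost over 20 bp in 26.4% of them in the wild-type library and in 51.6% in the DNA-PKcs-/- library.

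The G1 differences were set against those in G2 by exact permutation of the phase labels within each genotype, over 81 arrangements, with a smallest possible two-sided p of 0.0123. All 4 G1 libraries and the second G2 replicates came from 1 sequencing run and the first G2 replicates from another. The labels do not say that the libraries are separate cultures, so p-values refer to these libraries only. The null of the permutation is no phase effect in any genotype, so a phase shift in 1 genotype alone can lower p. Of 13 measures, none passed 0.05 after Benjamini-Hochberg adjustment. A single measure at the smallest p of this exact permutation was adjusted to 0.160, so no measure could pass alone. Not passing therefore does not show that the G1 and G2 differences are equal. The insertion difference was -47.0 points in G1 and -43.4 points in G2 (exact permutation p = 0.531, adjusted 0.890), and that of joins with 1 or more shared bases was 24.0 points in both (adjusted p = 0.988, exact permutation). The telomere difference was 40.7 points in G1 and 47.1 points in G2 (exact permutation p = 0.741, adjusted 0.890).

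The difference in joins shortened by over 20 bp at both ends was 35.6 points in G1 and 22.3 points in G2 (exact permutation p = 0.198, adjusted 0.642). The gap of 13.3 points was 21.3 points without G2 replicate 1 and 5.37 points without G2 replicate 2. The 2 G1 libraries without the protein were at 41.9% and 40.8%. The G2 libraries were at 35.8% and 23.4% for DNA-PKcs-/- and at 28.8% and 17.7% for the double mutant, all below the G1 libraries of their genotype. For partner-end deletions over 200 bp the difference was -3.13 points in G1 and 1.54 points in G2 (exact permutation p = 0.0123, the smallest the design allows, adjusted 0.160). It rests on the high wild-type value of 6.51% in G1, against 1.43% and 1.20% in G2. The substrate difference was -24.6 points in G1 and -43.1 points in G2 (exact permutation p = 0.148, adjusted 0.642).

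**Figure D5:**
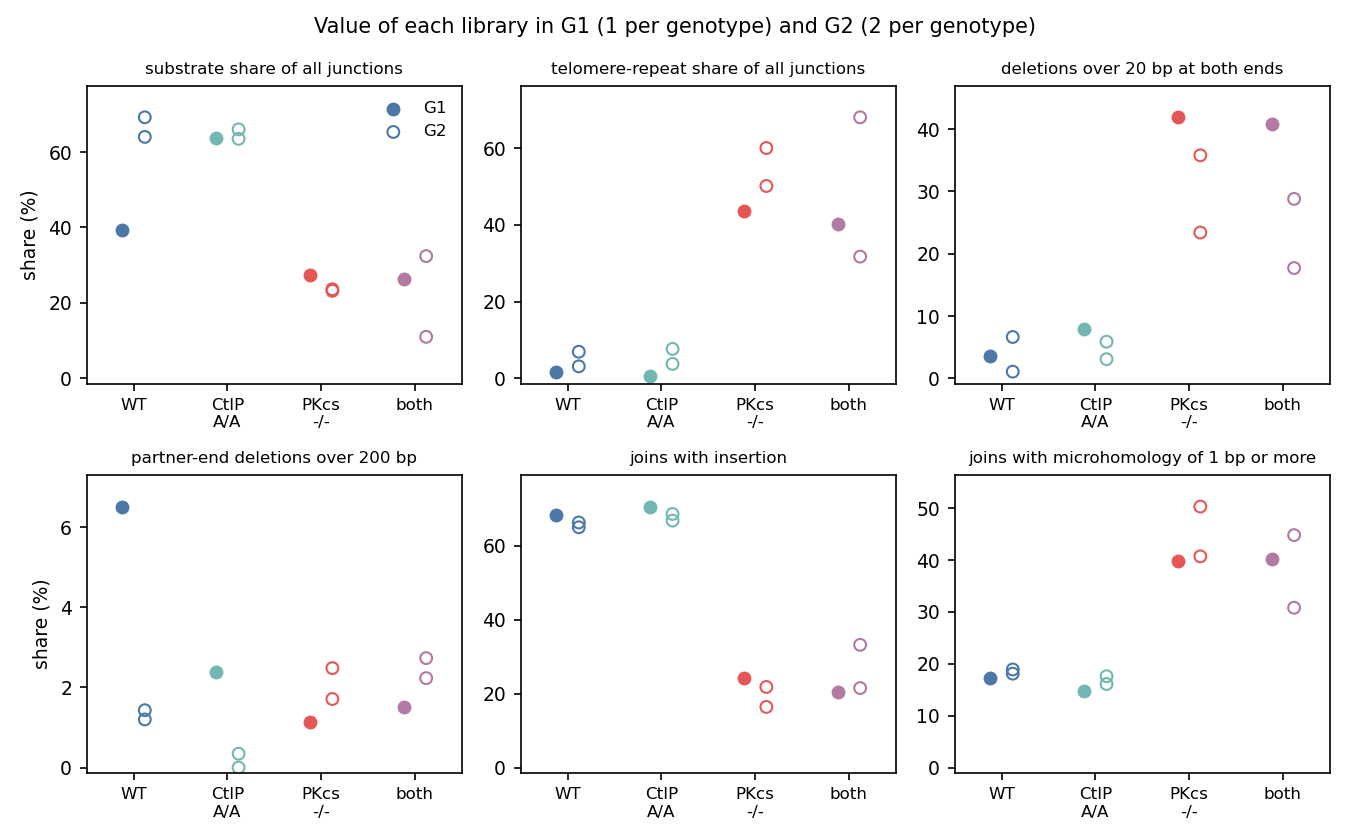
Share (%, vertical axes) of 6 measures in each library, with filled points for G1 (1 per genotype) and open points for G2 (2 per genotype), "both" being the double mutant. In the panel of joins shortened at both ends, the G1 points without DNA-PKcs lie at 41.9% and 40.8%, above the 4 G2 points without it, which lie between 17.7% and 35.8%.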

How the data were processed

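HTGTS junctions were measured in 4 G1 libraries and compared with 8 G2 libraries, grouped by their labels. Per the labels' protocols, sonicated genomic DNA was amplified from a bait primer, germline substrate was removed with BstBI, and alignment was to mm10 plus the substrate sequence as its own chromosome. The submitters' processing notes name Bowtie2. The sources used here do not give the junction caller, its filters or its duplicate handling. The deposited tables list 1 junction per line with positions in bp and no normalization. The 6 samples with I-PpoI breaks are not analysed here.

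Scripts ran under pandas 2.3.3, numpy 2.4.6, matplotlib 3.10.9, scipy 1.17.1 and Python 3.11.15, and were tested on simulated data. Coding ends were set beside the heptamers that the reads show. A coding join ran on the + strand from the partner heptamer to 1000 bp past the coding end. A gap between bait and prey alignments was an insertion and an overlap a homology. Segments were named from GENCODE M21, and a segment's coding side ran from 7 bp before to 50 bp after its border. Of 83080 matched bases on chromosome 6, 100.0% equalled GRCm38.p6.

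A count of 0 allows up to 3 counts, that is, 0.100%, 0.360%, 0.0595% and 0.0424% of junctions in the order wild type, CtIP A/A, DNA-PKcs-/-, double mutant. The members, measures, classes and lists were chosen with earlier results of these data known. Named items were the 6 antigen receptor loci and Jκ segments, the 10 megabase bins and the 5 prey positions and bait ends with the highest mean share, and the 5 most frequent homologies and insertions of each group. Alternatives covered repeat lines, alignment filters, windows, thresholds, denominators, each CtIP genotype alone and each G2 replicate left out.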

Additional observations from a re-analysis of the deposited data

How the results depend on the processing

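No paired analysis was possible because each G1 genotype has 1 library, with no replicate number shared between genotypes. Of the G1 differences under the alternatives, 36 values moved beyond the counting interval, 3 others were counted as reversed, and 46 did neither. The 36 include the changes of sign given below for homology of 4 bp or more, whose main interval included 0. The causes were not tested. The signs of the deletion, insertion and direct-join differences were kept in every alternative run, but not always beyond counting error. With inserted joins out of the denominator the interval for direct joins included 0 (-4.95 to 6.51). So did that for partner loss over 200 bp with CtIP A/A alone (-2.92 to 0.429). With wild-type CtIP alone the difference was -11.8 points for the substrate share, 42 for telomere repeat, 0.727 for antigen receptor loci, 38.3 for loss over 20 bp at both ends and -5.37 for partner loss over 200 bp, and 13.0 bp for median partner loss. With CtIP A/A alone these were -37.4, 39.5, 12.1, 32.9 and -0.897 points, and insertion was -50.1 points. With identical junctions counted once, the substrate share differed by -18.7 and partner loss over 200 bp by -4.92 points. With uncut bases and prey alignments under 30 bp left out, telomere repeat differed by 42.8 points.

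A coding-join window on both sides of the prey peak gave 39.5 points for bait loss over 20 bp, -42.6 for insertion, 20.6 for shared bases and -0.847 for homology of 4 bp or more, a change of sign. Trimming alignments at the heptamer borders gave -50.9 for insertion, 2.33 for homology of 4 bp or more and -3.63 for palindromic insertions. With inserted joins out of the denominator, direct joins differed by 0.798, shared bases by -0.798 (a change of sign) and homology of 4 bp or more by -3.79 points (a change of sign). A threshold of 10 bp gave 40.9 points at the partner end, 40.4 at the bait end and 48.7 at both, and one of 50 bp gave 11.7, 30.6 and 11.4. Leaving telomere repeat out of the total gave -5.77 points for the substrate share, all genome junctions as the total gave -2.78 for antigen receptor loci (a change of sign), and telomere events counted once gave 3.99 points. Alternatives chosen after seeing the data were a telomere class from 2 units (telomere repeat 48.5, antigen receptor loci 11.7 points), its removal from the total (substrate share 1.84 points, a change of sign), and removal of pyrimidine or purine runs as well (telomere repeat 46.3, antigen receptor loci 13.6 points).

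Leaving out G2 replicate 1 or 2, the G1 minus G2 difference ranged from -16.0 to 3.26 points for telomere repeat, -0.0704 to 9.33 for antigen receptor loci, -0.496 to 10.0 for partner loss and -0.167 to 12 for bait loss over 20 bp, -1.24 to 1.31 for shared bases and -0.189 to 0.168 for palindromic insertions. Each of these ranges includes a change of sign, while that for loss over 20 bp at both ends, 5.37 to 21.3, and that for the substrate share, 11.1 to 25.8, do not. No exact permutation test of 16 arrangements can give p below 0.125. Depth limits the CtIP A/A library most, with 834 junctions.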
